A study of Phaseolus vulgaris with 12 samples.

Results

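Transcript levels of 2 genes of photosynthetic carbon fixation, Rubisco activase (Phvul.001G234300) and a Rubisco small chain (Phvul.004G073450), were followed in leaves of common bean (Phaseolus vulgaris). They were chosen by gene name, as leaf transcripts of high abundance, and are 2 of 22542 loci in the deposited expression table. Their high level is thus a description. The libraries came from true leaves of the varieties 120 and 093, described by the submitters as tolerant of and sensitive to cold. The 4 groups were 120 cold, 120 control, 093 cold and 093 control, with 3 libraries each. Cold plants spent 3 days in an incubator at 4 °C and control plants were left untreated on a culture rack, both with 12 h of light, so that cold and growth place cannot be told apart. Each variety and treatment had 3 pots of 4 seeds, but the labels do not tie libraries to pots or plants. P-values therefore rest on differences among single libraries of a group, and that spread may be technical.

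Rubisco is the stromal enzyme that joins CO2 to ribulose bisphosphate, the first step of the Calvin-Benson cycle. Its large chain is encoded in the plastid genome and its small chain by a family of nuclear genes whose products are imported into the chloroplast. Rubisco activase is an ATP-driven protein, also nuclear-encoded, that removes inhibitory sugar phosphates from the active site of Rubisco and so keeps the enzyme able to work in the light.

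Levels are FPKM, fragments per kilobase of transcript scaled to the mapped fragments of a library, as the authors deposited them, and so are per length. The libraries summed to between 313320 and 350100 FPKM. The number of reads is not given in the sources used here. Judged by the steps between low values, libraries differed in depth by up to 1.39 times. That estimate rested on 26 to 68 loci for each library set against 093 cold library 1. It looked only within a limited range, so larger differences would have been missed. Changes are differences of mean log2(FPKM + 1) from a limma fit over 14716 loci that reached 1 FPKM in 3 libraries or more. Loci were called where the Benjamini-Hochberg adjusted p was below 0.05 and the log2 change was 1 or more in size. Rose and fell are written of called loci. Leaf genes were present in every group. The 54 loci described as antenna or photosystem proteins, of which 0 were at 0 in every library, summed to 5235 to 5602 FPKM in 120 cold, 16467 to 18620 FPKM in 120 control, 6031 to 6736 FPKM in 093 cold and 18137 to 26499 FPKM in 093 control. The 47 loci with cupin, oleosin or lipid-transfer words, taken as seed markers and mostly lipid-transfer proteins, summed to 145 to 239.7 FPKM in 120 cold, 12.9 to 18.8 FPKM in 120 control, 96.8 to 137 FPKM in 093 cold and 20.1 to 257 FPKM in 093 control. The part of either list in the results on the members was not tested. In leaf RNA, fewer cells of a type and less RNA per cell cannot be told apart.

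Rubisco activase fell under cold in both varieties. Its log2 change was larger in 120, but that difference lost its call in 10 of 23 alternative settings. In the 120 cold libraries activase had 1334, 1369 and 1044 FPKM, against 16628, 14035 and 17332 FPKM in the 120 control libraries. The groups did not overlap, and the highest cold library lay far below the lowest control library. In the 093 cold libraries it had 2778, 2681 and 2841 FPKM, against 17655, 11877 and 15671 FPKM in the 093 control libraries. Again the groups did not overlap, with the 093 cold libraries close together and the 093 control libraries spread.

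The group means of activase were 1249 ± 178 FPKM in 120 cold and 15998 ± 1736 FPKM in 120 control (SD, n = 3 each). They were 2767 ± 80.6 FPKM in 093 cold and 15067 ± 2936 FPKM in 093 control. The means were thus 12.8-fold lower in 120 cold than in 120 control and 5.45-fold lower in 093 cold than in 093 control. The log2 change was -3.68 in 120 (SE 0.274, limma adjusted p = 2.6e-07) and -2.43 in 093 (SE 0.274, limma adjusted p = 7.8e-06). Calls covered 46.4% of tested loci in 120 and 48.2% in 093, and calls of a fall 18.6% in 120 and 15.2% in 093. Cold and control libraries were fully separate for 72.8% of loci in 120 and for 78.3% in 093. By log2 change, activase stood at place 172 from the strongest fall in 120 and at place 449 in 093. Its mean level dropped by 14749.5 FPKM in 120 and dropped by 12301 FPKM in 093, in each variety the largest drop in FPKM of the 22542 loci. The next highest control means, 4854 FPKM in 120 and 11405 FPKM in 093, were smaller than these drops. No other locus could thus have dropped as far, and this place follows from the high control level of activase.

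The scale of the libraries bears on these changes. Over all tested loci the log2 change had a median of 0.18 in 120 and 0.43 in 093, and activase lay 3.86 below that median in 120 and 2.85 below it in 093. Calls were 4092 higher and 2733 lower in 120, and 4857 higher and 2239 lower in 093, whereas median-ratio scaling gave 3347 higher and 3386 lower in 093 and quantile normalization 3297 higher and 3382 lower in 120. Quantile normalization, which gives the highest loci of all libraries the same values, reduced the activase change in 093 to -0.81 (limma adjusted p = 0.020), below the size needed for a call.

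**Figure D1:**
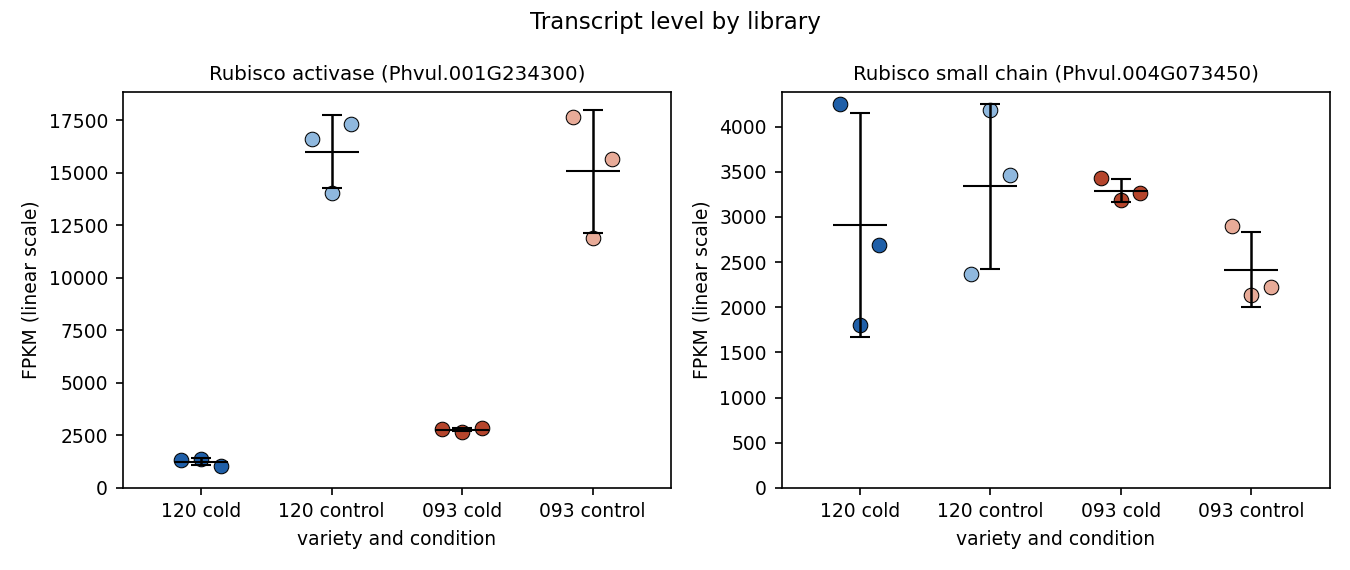
FPKM of Rubisco activase (left) and Rubisco small chain (right) in each library, on linear axes that start at 0, for 120 cold, 120 control, 093 cold and 093 control; points are libraries, wide bars group means and error bars SD (n = 3). Activase lies between 1044 and 2841 FPKM in all cold libraries and between 11877 and 17655 FPKM in all control libraries, while the small chain overlaps between cold and control in 120.

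The small chain did not follow activase. In the 120 cold libraries it had 4252, 1803 and 2689 FPKM, against 2370.1, 4187 and 3464 FPKM in the 120 control libraries. These ranges overlapped almost entirely, and 120 cold held the highest and the lowest value of the 12 libraries. In the 093 cold libraries it had 3429, 3183 and 3265 FPKM, against 2896, 2138 and 2221 FPKM in the 093 control libraries. All 093 cold libraries were above all 093 control libraries, which, as given above, was so in one direction or the other for most tested loci.

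Mean small chain levels were 2914 ± 1240 FPKM in 120 cold and 3340.5 ± 915 FPKM in 120 control, and 3292 ± 125 FPKM in 093 cold and 2418 ± 416 FPKM in 093 control (SD, n = 3 each). The log2 change was -0.25 in 120 (95% interval -0.98 to 0.48, limma adjusted p = 0.53) and 0.46 in 093 (95% interval -0.27 to 1.19, limma adjusted p = 0.23). Neither was called, and the intervals leave room for changes in either direction. Without 120 cold library 2, the lowest, the change in 120 was 0.06, so its sign rested on that library. The change in 093 was 0.03 above the median of all tested loci. With median-ratio scaling it was -0.08, and with quantile normalization 1.61 (limma adjusted p = 0.0032), past the threshold for a call.

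The share of the summed FPKM of a library shows how the pair ranked among leaf transcripts. Activase made up 0.377% ± 0.0579 of the FPKM total in 120 cold and 4.66% ± 0.531 in 120 control, and 0.809% ± 0.0188 in 093 cold and 4.60% ± 0.754 in 093 control (SD, n = 3 each). The small chain made up 0.876% ± 0.364 in 120 cold and 0.968% ± 0.249 in 120 control, and 0.962% ± 0.0378 in 093 cold and 0.740% ± 0.109 in 093 control. Activase was the most abundant locus in 5 of the 6 control libraries and second in 093 control library 2. It ranked 9, 10 and 15 in the 120 cold libraries and 3, 4 and 3 in the 093 cold libraries. The small chain ranked between 1 and 5 in the cold libraries and between 4 and 12 in the control libraries, ranges that overlapped.

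Both genes together held 1.25% ± 0.368 of the FPKM total in 120 cold and 5.63% ± 0.349 in 120 control, and 1.77% ± 0.0488 in 093 cold and 5.35% ± 0.838 in 093 control (SD, n = 3 each). The difference, averaged over the varieties, was -3.97 percentage points, with every cold library below every control library of its variety. It lay in activase and is no separate result. The mean share of the small chain was 0.876% in 120 cold and 0.968% in 120 control. In 093 it was higher under cold, 0.962% against 0.740% in the control. In an exact two-sided permutation test within varieties p was 0.005, the smallest that the 400 arrangements can give. With quantile normalization the difference was -0.41 (exact permutation p = 0.32).

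The ratio of activase to small chain within a library is not altered by any factor that scales the whole library. In the 120 cold libraries activase stood at 0.314, 0.759 and 0.388 times the small chain, against 7.02, 3.35 and 5.00 times in the 120 control libraries. In the 093 cold libraries it stood at 0.810, 0.842 and 0.870 times the small chain, against 6.10, 5.56 and 7.06 times in the 093 control libraries. Activase was thus the higher of the pair in all control libraries and the lower in all cold libraries. The log2 ratio averaged -1.14 ± 0.666 in 120 cold and 2.29 ± 0.534 in 120 control, and -0.25 ± 0.0514 in 093 cold and 2.63 ± 0.174 in 093 control (SD, n = 3 each). The mean ratio was 10.8-fold lower in 120 cold than in 120 control and 7.38-fold lower in 093 cold than in 093 control. The difference over both varieties was -3.16 on the log2 scale (exact permutation p = 0.005, the smallest possible). Within a variety 3 against 3 libraries cannot go below p = 0.10, which both varieties reached in the exact permutation test.

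Set between varieties within treatments, the log2 ratio differed by -0.62 (120 minus 093, exact two-sided permutation p = 0.05). This did not go below the threshold and depended on single libraries. It was -0.80 (exact permutation p = 0.02) without 120 cold library 2 and -0.75 (exact permutation p = 0.005) without 120 control library 1. Without any 1 of the other libraries the exact permutation p lay between 0.05 and 0.105, with -0.48 (p = 0.10) without 120 control library 2 and -0.57 (p = 0.105) without 093 control library 3. With quantile normalization the difference was -0.47 (exact permutation p = 0.16). The ratio of 120 cold library 2, 0.759, was the only one of that group near those of 093 cold.

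**Figure D2:**
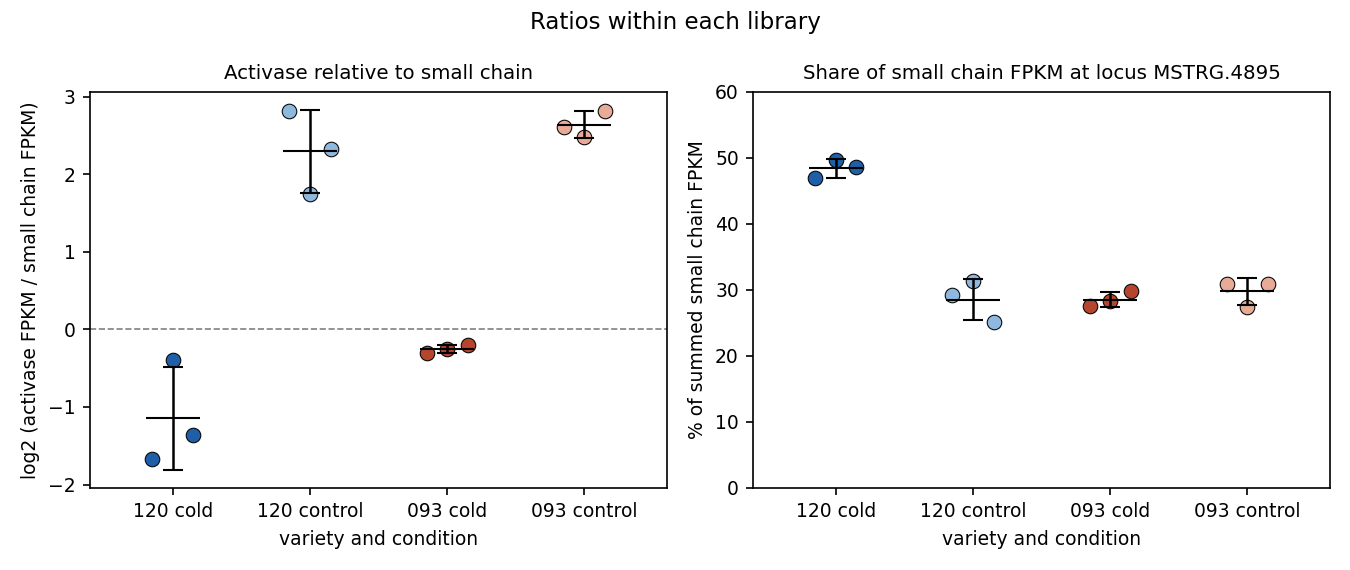
Left, log2 of activase FPKM over small chain FPKM in each library, with a dashed line at equal levels; right, the percentage of the summed FPKM of the described small chain loci that lay at the second of them, MSTRG.4895. Points are libraries, wide bars group means and error bars SD (n = 3). All cold libraries lie below 0 on the left, and the 120 cold libraries stand apart at 46.9% to 49.8% on the right.

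Without cold the varieties had similar activase levels. The mean was 15998 FPKM in 120 control and 15067 FPKM in 093 control, the libraries overlapped, and the log2 difference was 0.10 (95% interval -0.50 to 0.70, limma adjusted p = 0.84). Of all tested loci 10.8% were called in this comparison, 6.34% higher and 4.44% lower in 120 control, and the libraries of the varieties were separate for 39.7%. Under cold activase was 2.22-fold lower by mean FPKM in 120 than in 093, with every 120 cold library below every 093 cold library, as was one group above or below the other for 53.4% of tested loci. The log2 difference was -1.16 (SE 0.274, limma adjusted p = 0.0072), and of tested loci 7.03% were called lower and 5.62% higher in 120 cold, 12.6% in all. With median-ratio scaling it was -0.96 (limma adjusted p = 0.017), short of the size for a call, and with no filter on low values the adjusted p was 0.29.

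The cold response of activase itself differed between the varieties by -1.26 on the log2 scale (120 minus 093, SE 0.387, 95% interval -2.11 to -0.41, limma adjusted p = 0.028), where 19.6% of all tested loci were called, 13.1% lower and 6.5% higher. The call was close to its limit. It was lost without 120 cold library 1 or 3, without 120 control library 3, without any 1 of the 093 cold libraries and without 093 control library 3, with differences between -1.31 and -1.13 and limma adjusted p-values between 0.054 and 0.075. The median difference of all tested loci was -0.23, and activase lay 1.03 below it; with median-ratio scaling the difference was -0.93 (limma adjusted p = 0.084).

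The small chain did not differ between varieties beyond the spread of the libraries. The log2 difference was -0.26 under cold (120 minus 093, 95% interval -0.99 to 0.47, limma adjusted p = 0.58) and 0.44 without cold (95% interval -0.29 to 1.17, limma adjusted p = 0.37). The difference of its cold responses was -0.70 (120 minus 093, 95% interval -1.74 to 0.33, limma adjusted p = 0.27). The order of group means was 120 control, 093 cold, 120 cold and 093 control, and of neighbours in that order none was apart beyond the SD of the libraries. For activase the order was 120 control, 093 control, 093 cold and 120 cold, where the first pair overlapped and all others did not.

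The small chain is one of several loci of its family in the table, and reads from near-identical copies may be divided among them in a way the sources used here do not state. A second locus, MSTRG.4895, carries the gene names Phvul.004G064800 and Phvul.004G073400 and the same small chain description. It had 3754, 1786 and 2541 FPKM in the 120 cold libraries, against 978, 1910.4 and 1160.0 FPKM in the 120 control libraries. The groups overlapped, and the log2 change of 0.99 (SE 0.320, limma adjusted p = 0.015) was just under the size for a call. A rise in 120 was called in 5 of 23 alternative settings. These were total scaling (1.04), quantile normalization (1.67), and fits without 120 cold library 2 (1.25) or 3 or without 120 control library 2 (1.27). Over left-out libraries the change in 120 was 0.72 to 1.27. MSTRG.4895 had 1301, 1259 and 1385 FPKM in the 093 cold libraries, against 1295, 809 and 996 FPKM in the 093 control libraries, a log2 change of 0.37 (limma adjusted p = 0.31). In 093 a rise was called only with quantile normalization (1.34), while median-ratio scaling gave -0.17. In 3 of the 4 groups, all but 093 cold, the library with the most FPKM at one of these loci also had the most at the other.

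The division of FPKM between the pair of small chain loci differed in 120 cold, a pattern noticed after the values were seen. MSTRG.4895 held 46.9%, 49.8% and 48.6% of their summed FPKM in the 120 cold libraries, against 29.2%, 31.3% and 25.1% in the 120 control libraries. In the 093 cold libraries it held 27.5%, 28.3% and 29.8%, against 30.9%, 27.4% and 31.0% in the 093 control libraries. The difference was 19.9 percentage points in 120, with no overlap (exact permutation p = 0.10, the smallest that 3 against 3 can give), and -1.22 percentage points in 093 (exact permutation p = 0.40). A further locus, MSTRG.4894, shares gene names with both, has no description, and had 23.4 to 176 FPKM over the 12 libraries.

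Summed over these 3 loci, the small chain family had 5653 ± 2232 FPKM in 120 cold and 4746 ± 1413 FPKM in 120 control, and 4748 ± 208 FPKM in 093 cold and 3535 ± 619 FPKM in 093 control (SD, n = 3 each). Taken this way, a choice made after seeing the data, the log2 change in 120 was 0.22 (limma adjusted p = 0.59), opposite in sign to that of the single locus and again not called. The log2 ratio of activase to the summed small chain differed by -3.38 between cold and control (exact permutation p = 0.005, the smallest possible) and by -0.81 between 120 and 093 (exact permutation p = 0.025). No description matched the words for the Rubisco large chain. A pair of loci described as ribulose-bisphosphate carboxylases and assigned to the large chain in KEGG, Phvul.009G144500 and Phvul.011G089000, found after the words were fixed, had at most 0.21 FPKM in any library.

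Further loci are described as Rubisco activase at far lower levels. Phvul.010G016000 had 8.92, 5.56 and 21.9 FPKM in the 120 cold libraries, against 44.6, 29.2 and 71.1 FPKM in the 120 control libraries, and fell there (log2 change -2.02, SE 0.445, limma adjusted p = 0.0015). In 093 it had 12.4 ± 0.739 FPKM under cold and 7.84 ± 3.24 FPKM in the control (SD, n = 3 each), a log2 change of 0.67 that was not called (limma adjusted p = 0.19). MSTRG.9539 joins a gene described as a thaumatin-like pathogenesis-related protein with one described as activase. It fell to 126 ± 26.5 FPKM in 120 cold, against 806 ± 83.4 FPKM in 120 control, and to 135 ± 2.04 FPKM in 093 cold, against 455 ± 85.9 FPKM in 093 control. The table gives both loci GO terms of Rubisco activator activity but a KEGG entry of phenylpropanoid biosynthesis, so their identity is uncertain. With the 3 described activase loci summed, the sign and call of each activase comparison stayed as above. The sum could hardly differ, since it is mostly Phvul.001G234300. That locus had a mean of 8770 FPKM over all libraries, against 381 FPKM for MSTRG.9539 and 20.2 FPKM for Phvul.010G016000.

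Rubisco needs chaperones to fold and assemble, and most loci of an assembly list built on words for such proteins rose where activase fell. The list also holds 4 Rubisco methyltransferase loci, which are not chaperones, and its chaperonin loci are not described as specific to Rubisco. Of 22 loci in the assembly list, all tested, 13 rose and 4 fell in 120, with a median log2 change of 1.15 beside 0.18 for all tested loci, and 14 rose and 3 fell in 093, with a median of 1.92 beside 0.43. Called higher were 27.8% of all tested loci in 120 and 33% in 093, and called lower 18.6% in 120 and 15.2% in 093. With a pseudocount of 10, which weighs down low loci, the list had 7 rises and 1 fall in 120, against 11 rises and 2 falls in 093. Chaperonin-60 alpha (Phvul.011G082600), a subunit of the plastid folding chamber, had 30.6, 34.9 and 73.3 FPKM in 120 cold, against 25.2, 32.8 and 33.3 FPKM in 120 control, and was not called there (log2 change 0.49, limma adjusted p = 0.10). It rose to 56.4 ± 0.298 FPKM in 093 cold, against 11.2 ± 0.0933 FPKM in 093 control (SD, n = 3 each, log2 change 2.24, limma adjusted p = 8.2e-06). The most abundant TCP-1/cpn60 locus, Phvul.005G051700, rose to 305 ± 2.97 FPKM in 093 cold, against 45.4 ± 7.62 FPKM in 093 control. In 120 it had 285 ± 69.4 FPKM under cold and 147 ± 44.8 FPKM in the control and was just short of a call (log2 change 0.97, limma adjusted p = 0.0019). It reached a call without 120 cold library 1 (1.06) or 2 (1.07) and without 120 control library 3 (1.203). The same held with total scaling (1.02) and with quantile normalization (1.11). The TCP-1/cpn60 family also holds cytosolic and mitochondrial chaperonins, which the words of the list do not separate.

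Co-chaperonins rose as well. Chaperonin 20 (Phvul.009G224900), a plastid co-chaperonin, rose to 186 ± 82.2 FPKM in 120 cold, against 79.7 ± 20.3 FPKM in 120 control, and to 110 ± 5.11 FPKM in 093 cold, against 40.9 ± 4.27 FPKM in 093 control (SD, n = 3 each). Its log2 change of 1.16 in 120 fell short of a call without 120 cold library 3 (0.82), without 120 control library 1 (0.94) and with median-ratio scaling (0.95). In 093 its 1.42 fell short with median-ratio scaling (0.88) and quantile normalization (0.90). Chaperonin 10 (Phvul.001G120500), of the family of small co-chaperonins, rose by log2 changes of 3.59 in 120 and 3.69 in 093. A further chaperonin 20 locus, Phvul.003G128900, was not called in either variety.

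RbcX proteins, which assist the assembly of large chains, went different ways. Phvul.006G062600 rose in both varieties, to 102 ± 4.72 FPKM in 120 cold, against 25.7 ± 6.44 FPKM in 120 control, and to 38.7 ± 1.04 FPKM in 093 cold, against 10.95 ± 2.72 FPKM in 093 control. Phvul.006G146300 had 10.7, 12.0 and 7.09 FPKM in 120 cold, against 0.111, 0.835 and 0.136 FPKM in 120 control. It had 8.45, 7.32 and 8.25 FPKM in 093 cold, against 13.2, 22.7 and 9.57 FPKM in 093 control. It rose in 120 (log2 change 3.01, limma adjusted p = 2.5e-06) and was not called in 093 (log2 change -0.77, limma adjusted p = 0.035), and the difference of these responses was itself called (log2 3.78, 120 minus 093, limma adjusted p = 1.1e-04). With a pseudocount of 10 the rise of Phvul.006G146300 in 120 was not called (0.93). In 093 a fall of this locus was called without 093 control library 3 (-1.03), with median-ratio scaling (-1.26) and with quantile normalization (-1.23). Phvul.008G283400 fell in 120 (log2 change -1.33) and was not called in 093 (-0.19). Its fall in 120 was not called with a pseudocount of 10 (-0.76).

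Rubisco methyltransferases modify Rubisco and other plastid proteins in plants, and 3 of 4 loci of that description fell in 120 and 2 of 4 in 093, where 18.6% of all tested loci were called lower in 120 and 15.2% in 093. Phvul.006G005700 fell to 18.0 ± 1.80 FPKM in 120 cold, against 82.9 ± 5.68 FPKM in 120 control, and to 16.8 ± 0.650 FPKM in 093 cold, against 55.0 ± 3.14 FPKM in 093 control (SD, n = 3 each). Phvul.002G320700 also fell in both varieties and Phvul.002G169400 in 120, calls that were lost with a pseudocount of 10. In 093 the assembly list had 6 falls with median-ratio scaling and 6 with quantile normalization, in place of 3.

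**Figure D3:**
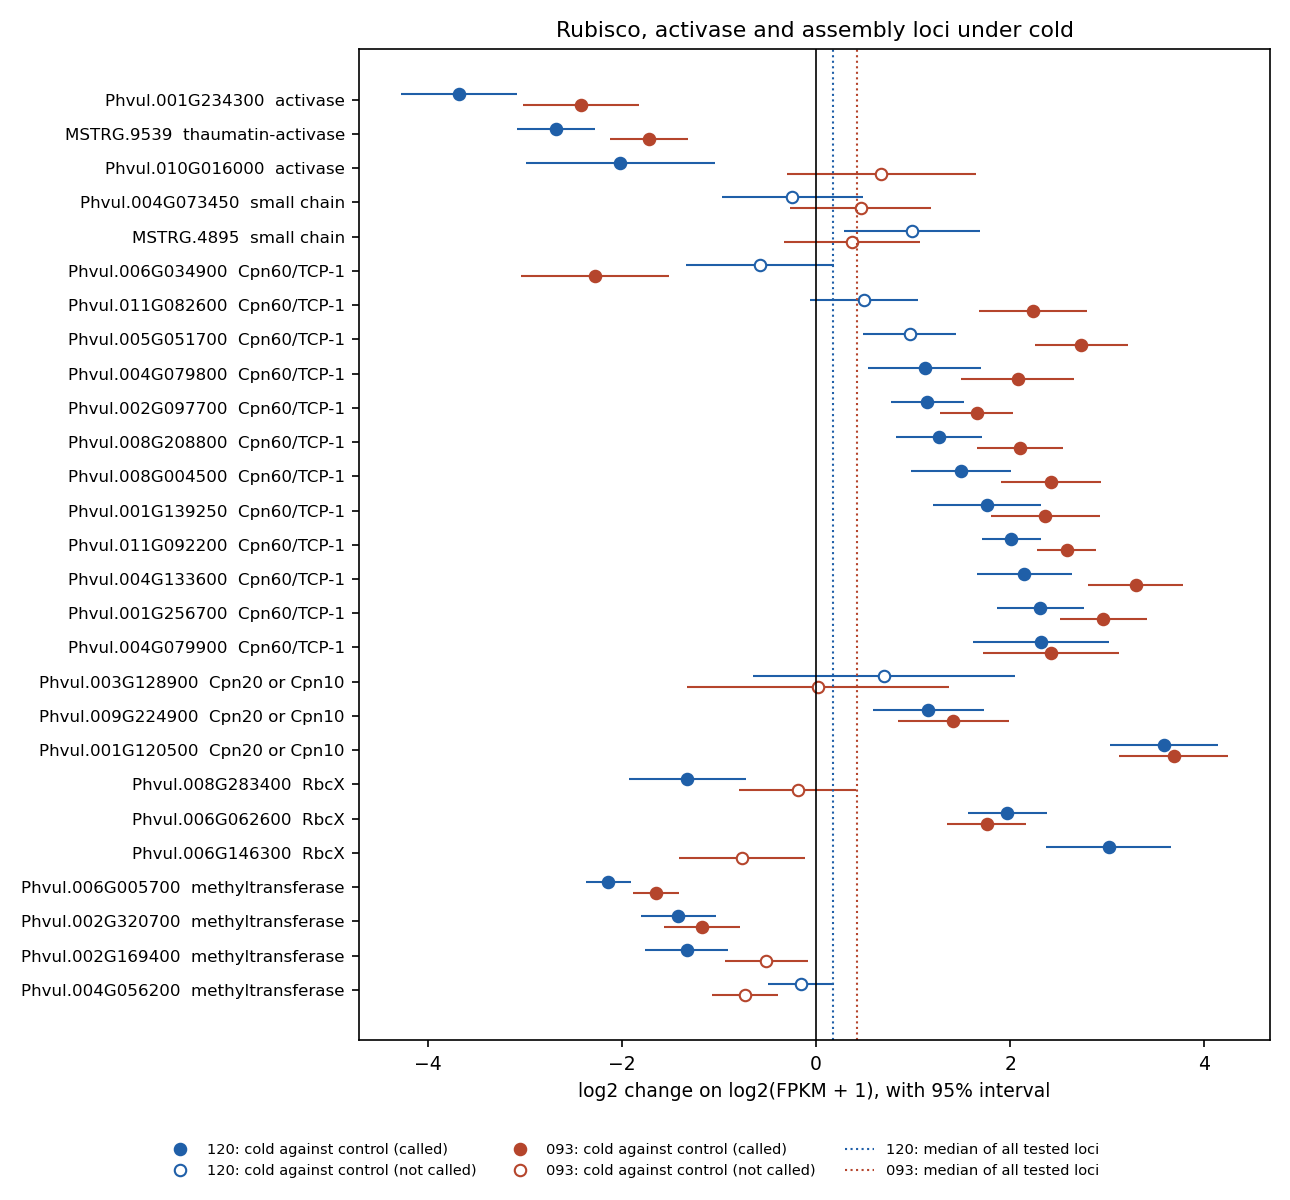
Log2 change under cold with its 95% interval for every tested locus of the activase, small chain and assembly lists, 120 above 093 in each row; filled points were called and open points were not, and dotted lines mark the median of all tested loci in each variety. Activase Phvul.001G234300 lies at -3.68 in 120 and -2.43 in 093, and most chaperonins above 1. The small chain Phvul.004G073450 lies at -0.25 in 120 and 0.46 in 093, and MSTRG.4895 at 0.99 in 120 and 0.37 in 093, all not called.

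Enzymes of the rest of the Calvin-Benson cycle were split. Of 27 loci matched by the words of that list 25 were tested. In 120, 9 loci rose and 9 fell, with a median log2 change of -0.57, while in 093 there were 8 rises and 8 falls, with a median of -0.15. Over all tested loci the medians were 0.18 in 120 and 0.43 in 093, with 27.8% called higher and 18.6% lower in 120, and 33% called higher and 15.2% lower in 093. With a pseudocount of 10 the list had 4 rises and 7 falls in 120. The words also match enzymes of glycolysis and other pathways. Summed FPKM of the list was 4738 to 6002 in 120 cold and 11628 to 15281 in 120 control, and 4179 to 5078 in 093 cold and 5309.7 to 8419.9 in 093 control. The sums of cold and control libraries did not overlap in either variety. Of 94 tested loci that the table assigns to KEGG carbon fixation, a list taken after the values were seen, 19 rose and 35 fell in 120, while 093 had 26 rises and 24 falls, against the same shares of all tested loci.

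The most abundant locus of each cycle enzyme gave an order of change. Sedoheptulose-bisphosphatase (Phvul.001G240200), which helps regenerate the CO2 acceptor, had 32.4, 29.4 and 50.5 FPKM in 120 cold, against 927, 1294 and 1171 FPKM in 120 control, and 42.4, 45.5 and 45.4 FPKM in 093 cold, against 631, 392 and 490 FPKM in 093 control. Its falls of log2 -4.91 in 120 and -3.45 in 093 were larger than those of activase. Transketolase (Phvul.007G006600), which moves carbon units between sugar phosphates, fell by -3.25 in 120 and -1.45 in 093. Fructose-1,6-bisphosphatase (Phvul.008G112000) fell by -2.61 in 120 and -2.38 in 093, and fructose-bisphosphate aldolase 2 (MSTRG.12572), which forms its substrate, by -2.22 in 120 and -1.12 in 093. The aldolase call in 093 was lost without 093 control library 1 (-0.94) and with quantile normalization (-0.27).

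Several other steps were not called in either variety, some of them for size alone. The A subunit of plastid glyceraldehyde-3-phosphate dehydrogenase (MSTRG.519) had 2192 ± 298 FPKM in 120 cold and 3796 ± 745 FPKM in 120 control, and 1643 ± 465 FPKM in 093 cold and 1663 ± 352 FPKM in 093 control (SD, n = 3 each). Its log2 changes were -0.78 in 120 (limma adjusted p = 0.027, under the size for a call) and -0.04 in 093. Phosphoribulokinase (Phvul.002G133100), which makes the substrate of Rubisco, had log2 changes of -0.92 in 120 (limma adjusted p = 0.0013, under the size for a call) and 0.19 in 093. Its fall in 120 was called with median-ratio scaling (-1.14) and without 120 control library 1 (-1.08). Phosphoglycerate kinase (Phvul.005G050700), the step after Rubisco, had -0.57 in 120 and -0.52 in 093, where a fall was called with median-ratio scaling (-1.06). Triosephosphate isomerase (Phvul.001G181000) had 0.60 in 120 and 0.78 in 093. Unlike these, ribulose-phosphate epimerase (Phvul.003G188800), which the words of the list missed and which was added after the values were seen, fell in 120 (-1.62). In 093 it missed a call for size alone (-0.92, limma adjusted p = 7.3e-05). The regulatory protein CP12 (Phvul.001G212900) did not reach the filter on low values.

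Carbonic anhydrase 1 (Phvul.004G013500), which interconverts CO2 and bicarbonate, fell to 762 ± 157 FPKM in 120 cold, against 1877 ± 329 FPKM in 120 control, and to 463 ± 14.3 FPKM in 093 cold, against 1318 ± 61.6 FPKM in 093 control (SD, n = 3 each). With quantile normalization it was called in neither variety (-0.57 in 120 and -0.95 in 093). Of 12 tested carbonic anhydrase loci 4 rose and 3 fell in each variety, counts near the shares of all tested loci called higher (27.8% in 120 and 33% in 093) and lower (18.6% in 120 and 15.2% in 093). Phosphoglycolate phosphatase 1 (Phvul.008G051700), which handles the product of the oxygenase reaction of Rubisco, fell in 120 (log2 change -1.78). In 093 it was under the size for a call (-0.92, limma adjusted p at most 0.0074 over the alternatives). A fall in 093 was called without 093 control library 2 (-1.12) and with median-ratio scaling (-1.46). It was also called with quantile normalization (-1.17) and with total scaling without both genes (-1.04).

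**Figure D4:**
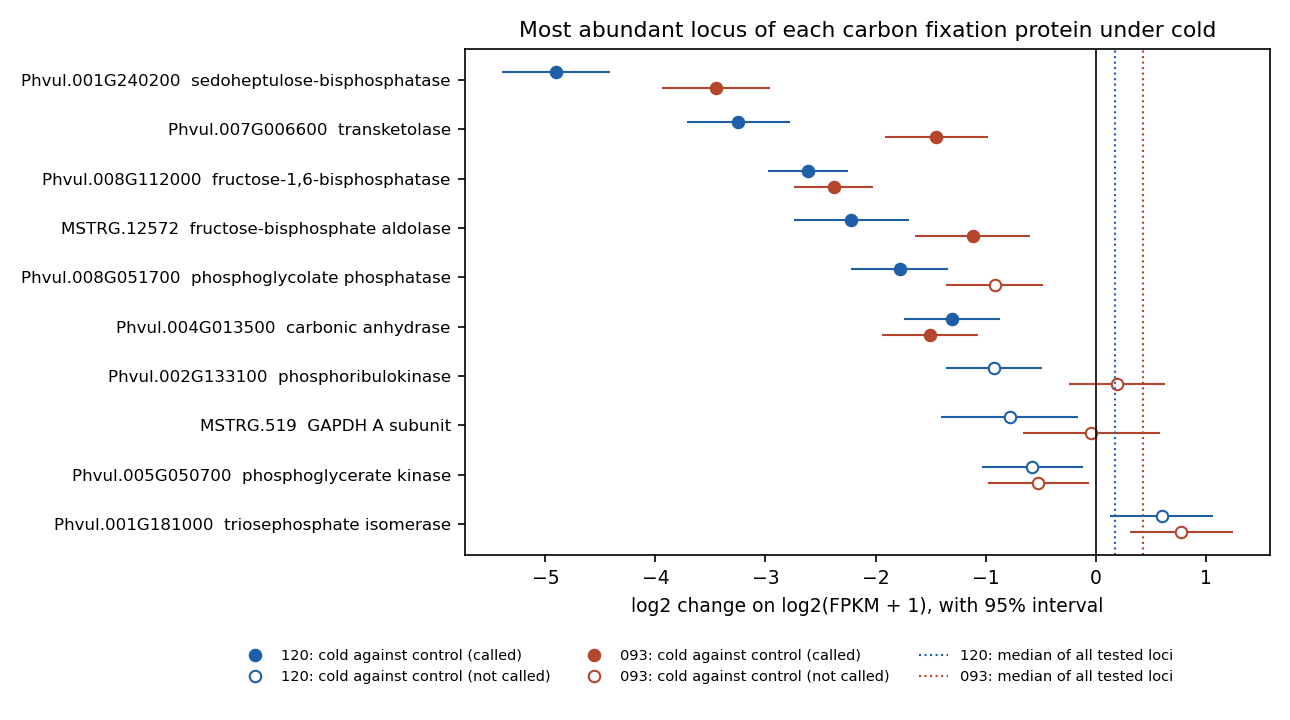
Log2 change under cold with its 95% interval for the most abundant tested locus of each carbon fixation protein, ordered by the change in 120, with 120 above 093 in each row; filled points were called, open points were not, and dotted lines mark the median of all tested loci. Sedoheptulose-bisphosphatase is lowest at -4.91 in 120 and -3.45 in 093, and triosephosphate isomerase highest at 0.60 in 120 and 0.78 in 093.

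Profiles across the 12 libraries were compared by the root mean square distance of log2(FPKM + 1), each locus centred on its own mean, as a description. Activase and the small chain were 1.65 apart. Nearest to activase among described loci were a pair of NPH3 family loci (phototropic response proteins), Phvul.009G074666 at 0.173 and Phvul.008G245701 at 0.174, whose levels were almost the same in every group. A nodulin MtN21-like transporter (Phvul.004G018600) followed at 0.215, then photosystem II subunit P-1 (Phvul.008G196500), of the water-splitting side of photosystem II, at 0.224, and ferrochelatase 2 (Phvul.002G278100), a haem synthesis enzyme, at 0.231. Ferrochelatase 2 had 6.22 ± 1.40 FPKM in 120 cold and 85.0 ± 6.75 FPKM in 120 control, and 11.1 ± 1.12 FPKM in 093 cold and 65.2 ± 1.99 FPKM in 093 control (SD, n = 3 each). Like activase, it was lowest in 120 cold. The 5 loci nearest to the small chain were at distances of 0.253 to 0.267, led by another NPH3 family locus (Phvul.011G107300), and none of their cold changes was called.

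Among the 10 loci with the highest mean FPKM over all libraries, only activase and Phvul.002G203700, which has no description, stood above the small chain. Photosystem II subunit R (Phvul.005G055200), a thylakoid protein of the same abundance class, had 1052 ± 42.6 FPKM in 120 cold, against 3751 ± 105 FPKM in 120 control, and 1183 ± 87.0 FPKM in 093 cold, against 4549 ± 1298 FPKM in 093 control (SD, n = 3 each). Its log2 differences between cold and control were -1.83 in 120 and -1.91 in 093, given as a description.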

How the data were processed

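Leaf mRNA of 12 libraries was sequenced and the authors deposited 1 table of FPKM per locus, with gene names, descriptions, GO and KEGG annotation per the file headers. The submitters' processing notes name cutadapt 1.9, HISAT2 2.0.4 and StringTie 1.3.4d, and also DESeq2 and edgeR, which were not used here since the table holds no counts. The genome build and the number of reads are not given in the sources used here, so counting error is unknown. Libraries were grouped by the sample titles.

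From the FPKM, log2(FPKM + 1) was fitted with limma 3.58.1 (R 4.3.3), with 1 mean per group over all 12 libraries and a mean-variance trend. Loci needed at least 1 FPKM in at least 3 libraries. P-values were adjusted by Benjamini-Hochberg over all 14716 tested loci in each comparison. A pseudocount of 1 shrinks the changes of low loci. Within-library ratios and shares were compared by exact two-sided permutation within strata. The procedure was tested on simulated data.

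Both genes, the word lists and the tests were chosen with earlier results of these data known. The loci named were both genes, every locus of the small chain, large chain, activase and assembly lists, the most abundant locus of each other listed protein and, as descriptions, the 10 loci of highest mean and the 5 nearest profiles. Alternatives were other pseudocounts, filters and scalings, only the libraries of a comparison, left-out libraries and a replicate block. Sums over family loci were added after seeing the data. So were the loci Phvul.003G188800, MSTRG.4894, Phvul.009G144500 and Phvul.011G089000. Sequences and coordinates were not used here.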

Additional observations from a re-analysis of the deposited data

Results flagged for a closer look

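The cold response differed between the varieties by a limma test of the difference itself for 12 loci among both genes, the loci of the small chain, activase and assembly lists and the most abundant locus of each other listed protein. In the lists named in full, 2 of 3 activase loci were called lower, and 2 higher and 4 lower of 22 assembly loci. Of 2 small chain loci 0 were called. Further loci of the other lists were called too and are given as counts. The Calvin-Benson list had 2 higher and 9 lower in all of 25 tested, and carbonic anhydrases 1 higher and 1 lower of 12 tested. Values are log2 differences of the cold response, 120 minus 093, with limma adjusted p under 0.05 over all tested loci, of which 19.6% were called. Of these 12 differences only that of Rubisco activase was rerun under the alternatives, where it lost its call in 10 of 23. Median-ratio scaling moved the median difference of all tested loci by 0.26. How far the calls of the other differences depend on the processing is thus not known. No explanation was tested.

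Rubisco activase (Phvul.001G234300) differed by -1.26, and the low-level activase-described locus Phvul.010G016000 by -2.69. Both were lower in 120 cold than in 120 control, while Phvul.010G016000 was not called in 093.

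In the Calvin-Benson cycle, transketolase (Phvul.007G006600) differed by -1.80, sedoheptulose-bisphosphatase (Phvul.001G240200) by -1.46, phosphoribulokinase (Phvul.002G133100) by -1.11 and aldolase 2 (MSTRG.12572) by -1.10. Transketolase, sedoheptulose-bisphosphatase and aldolase 2 fell in both varieties, by more in 120, the call of aldolase 2 in 093 being lost without 093 control library 1 (-0.94) and with quantile normalization (-0.27).

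Among chaperones, the TCP-1/cpn60 loci Phvul.005G051700 and Phvul.004G133600 differed by -1.77 and -1.15, and chaperonin-60 alpha (Phvul.011G082600) by -1.74, with the larger increase in 093. The TCP-1/cpn60 locus Phvul.006G034900 differed by 1.70, with log2 changes of -0.58 in 120 and -2.28 in 093. The RbcX loci Phvul.008G283400 and Phvul.006G146300 differed by -1.14 and 3.78.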

How the results depend on the processing

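The fall of activase in 120 kept its call under every alternative run, with log2 changes of -3.90 to -2.23. In 093 it was lost only with quantile normalization (-0.81). The difference of its responses was not called with a pseudocount of 0.1 (-1.26, limma adjusted p = 0.052), with no filter (-1.26, limma adjusted p = 0.44) or with median-ratio scaling (-0.93), and left-out libraries gave -1.38 to -1.09. Under cold, 120 against 093 was not called with no filter (-1.16) or median-ratio scaling (-0.96). Without cold the activase difference was -0.033 with median-ratio scaling and -0.062 to 0.22 with left-out libraries.

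The small chain in 120 was 0.98 with quantile normalization, 0.22 summed over 2 loci, 0.22 over 3 loci and -0.56 to 0.056 with left-out libraries. In 093 it was -0.084 with median-ratio scaling and 1.61 with quantile normalization. Under cold, 120 against 093 was 0.21 over 2 loci, 0.18 over 3 loci and -0.58 to 0.039 with left-out libraries. The share of both genes was -0.41 points with quantile normalization. The ratio of 120 to 093 was -0.84 over 2 loci, -0.81 over 3 loci (exact permutation p = 0.025 for each) and -0.80 to -0.48 with left-out libraries (exact permutation p = 0.005 to 0.105), and -0.47 with quantile normalization (exact permutation p = 0.16). The causes were not tested.

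With a pseudocount of 10, calls were 2874 in 120, 2825 in 093, 725 for the difference, 384 under cold and 393 without cold, against 6825, 7096, 2886, 1861 and 1586 with a pseudocount of 1. Median-ratio scaling moved the median change of all tested loci by -0.16 in 120 and -0.42 in 093, and quantile normalization by -0.22 and -0.43. For the difference, calls were 956 higher and 1930 lower, against 1424 and 1162 with median-ratio scaling.

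Among other named loci, Phvul.003G128900 in 093 was -0.029 with a pseudocount of 0.1, -0.057 with total scaling, -0.046 with total scaling without both genes, -0.27 with median-ratio scaling, -0.41 with quantile normalization and -0.21 to 0.26 with left-out libraries, and in 120 -0.013 to 1.35 with left-out libraries. With median-ratio scaling in 093, MSTRG.4895 was -0.17 and Phvul.002G133100 -0.35, the second -0.0016 to 0.29 with left-out libraries. With quantile normalization Phvul.005G050700 was 0.095 in 120 and MSTRG.519 was 1.05 in 093, the second -0.20 to 0.22 with left-out libraries. Phvul.004G056200 in 120 was -0.27 to 0.022 with left-out libraries.

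Same-numbered cold and control libraries of a variety did not deviate together (correlations -0.080 to 0.049). Libraries of 120 and 093 were not compared in this way, and the labels do not say what the number stands for. With a replicate block calls were 6821, 7098, 2800, 1854 and 1572, no call of either gene changed, and the ratio under cold had an exact permutation p of 0.031, the smallest of 64 arrangements, while that of 120 against 093 had 0.094. Not every library correlated best with its own number. Unknown read depth limits the values of low loci.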
